A study of Mus musculus with 2 samples.

Results

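Mir142, Mir223 and Mir150 are microRNA genes known from white blood cells, and their levels in mouse cerebral cortex are described here. They were taken by gene name, in the GENCODE M21 annotation, from tables of 2202 microRNA genes, and all 3 were found. Small RNA of the left cerebral cortex was sequenced (microRNA-seq) in 2 mice, both female, 36 days old and of the strain B6CASTF1/J, a hybrid of a laboratory strain and the wild-derived CAST strain. The labels name no treatment and number the animals as biological replicates 1 and 2 (mouse 1 and mouse 2), under a single donor code. With 1 library per animal in 1 group, there is no condition to compare, and a difference between the mice cannot be told apart from a difference between their libraries.

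MicroRNAs are cut from a hairpin precursor into mature strands of either arm (5p and 3p), and they repress messenger RNAs that pair with the seed, bases 2 to 8 of the mature strand. Mir142 is expressed across the blood lineages, including the macrophages of the brain (microglia). Mir223 is a myeloid microRNA, highest in neutrophils and their precursors, and Mir150 is highest in mature lymphocytes, where it represses the transcription factor gene Myb. Whole cortex holds microglia, blood left in vessels, vessel cells and neurons, so each level is that of the tissue as a whole. In such tissue a smaller number of cells of a type and less RNA per cell cannot be told apart.

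The mature sequences held for the 3 genes show how far their reads can be told from one another. They are RefSeq sequences on GRCm38.p6, written 5′ to 3′ with the seed in capitals.
miR-142a-5p: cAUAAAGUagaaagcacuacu
miR-142a-3p: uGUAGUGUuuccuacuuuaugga
miR-223-5p: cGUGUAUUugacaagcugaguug
miR-223-3p: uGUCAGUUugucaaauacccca
miR-150-3p: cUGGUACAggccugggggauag
These 5 strands carry 5 different seeds, and no other mature microRNA among the 1738 entries of the RefSeq table has any of them. None of the 3 hairpins has 20 successive bases in common with any other hairpin of the annotation, read on the same strand. The G and C content ranged from 33.3% in miR-142a-5p to 63.6% in miR-150-3p. The sequence of miR-150-5p is not analysed here. Since reads were counted by gene, 5p and 3p strands were not told apart.

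The genes lie on 3 chromosomes (mm10, the GRCm38 assembly). Mir142 (ENSMUSG00000105196.1) lies at chr11:87756864-87756927 on the plus strand, in an intron of the non-coding host gene Mir142hg. The nearest protein-coding gene, Tspoap1, begins 3613 bases after it. Mir223 (ENSMUSG00000076066.1) lies at chrX:96242817-96242926 on the plus strand and overlaps an exon of the non-coding gene F630028O10Rik on the same strand. Vsig4, a macrophage complement receptor gene, lies 4276 bases away on the opposite strand. Mir150 (ENSMUSG00000065495.1) lies at chr7:45121757-45121821 on the plus strand, in no other annotated gene. Mir223 and Mir150 thus overlap no annotated gene on the opposite strand, while Mir142 does.

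That opposite-strand gene is Mir142b, a hairpin of 115 bases at chr11:87756841-87756955 on the minus strand, which holds the whole reverse complement of Mir142. Both hairpins are shown because the strand of a read alone decides which of them it is given to. The mature strands are in capitals.
Mir142: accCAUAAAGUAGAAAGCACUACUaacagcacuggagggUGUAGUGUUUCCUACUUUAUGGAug
Mir142b: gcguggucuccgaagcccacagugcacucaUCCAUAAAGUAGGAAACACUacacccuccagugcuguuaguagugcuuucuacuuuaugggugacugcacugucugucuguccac
The Mir142 hairpin matches, as reverse complement, bases 29 to 92 of Mir142b, and miR-142b is the reverse complement of bases 4 to 23 of miR-142a-3p. The deposited columns carry no names, and which of them is stranded was read from their values. Counted on the gene's own strand, Mir142 had 93 reads in mouse 1 and 255 in mouse 2, and Mir142b had 0 in both. A count of 0 allows up to 3 counts, or 1.55 CPM (the count scaled to a common library size) in mouse 1 and 1.61 in mouse 2. All counted reads of the locus thus lay on the Mir142 strand. The same 93 and 255 reads stood in the opposite-strand column of Mir142b, and in the column that ignores strand both genes had 0 in both mice. Of the 304 genes at 10 CPM or more in both mice, 23 had no unstranded count in either, Mir142 among them. The level of Mir142 can therefore be read only from the stranded counts. For Mir223 the sense and unstranded counts were the same, and for Mir150 they differed by 1 read in mouse 1.

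**Figure D1:**
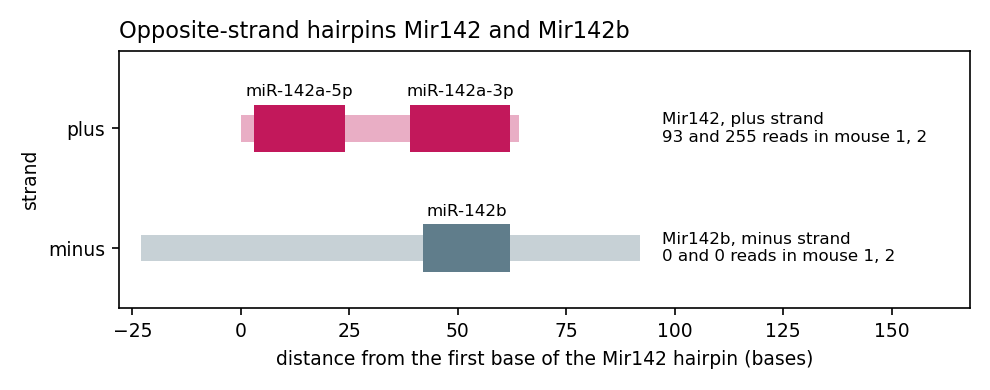
Map of the Mir142 locus, with distance in bases from the first base of the Mir142 hairpin on the x axis and strand on the y axis; pale bars are hairpins, dark bars mature strands. The Mir142 hairpin lies wholly within the span of Mir142b, and the 93 and 255 sense-strand reads of mouse 1 and mouse 2 all fell to Mir142.

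Mir150 was far the most read of the 3 genes. It had 2955 sense-strand reads in mouse 1 and 2355 in mouse 2, which is 1531 CPM (95% exact Clopper-Pearson interval 1476 to 1587) and 1264 CPM (1213 to 1316). CPM scales a gene's sense reads to the sense reads of all microRNA genes, of which mouse 1 had 1930234 and mouse 2 had 1863876. The intervals and floors cover counting error only, since reads are not independent molecules. Mir150 stood at 1397 ± 189 CPM (SD, n = 2). In both mice it was the highest of the 3, with mouse 1 above mouse 2 and counting intervals that did not overlap. Intervals apart are not particular to Mir150. The median of the 324 genes at a mean of 10 CPM or more lay 1.44-fold apart, and Mir150 lay 1.25-fold apart.

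Mir142 was detected in both mice at a lower level, with a wide spread between them. Its level was 48.2 CPM (38.9 to 59.0) in mouse 1 and 136.8 CPM (120.5 to 154.7) in mouse 2, or 92.5 ± 62.7 CPM (SD, n = 2). Mouse 2 was the higher, and the counting intervals of the mice did not overlap. As for Mir150, intervals apart cover counting error only and are not particular to this gene.

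Mir223 was near the limit of what was called detected, 10 CPM in both mice. It had 11 reads in mouse 1 and 22 in mouse 2, which is 5.70 CPM (2.84 to 10.2) and 11.8 CPM (7.40 to 17.9), or 8.75 ± 4.32 CPM (SD, n = 2). Both counts lie above the floor of 3, but mouse 1 was under 10 CPM, so Mir223 was not called detected. Its counting intervals overlapped between the mice. Detection in both mice was met by 2 of the 3 genes, against 13.8% of all genes in the tables. Only 722 of the 2202 genes had any read, and 3 genes are too few to set against that share.

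**Figure D2:**
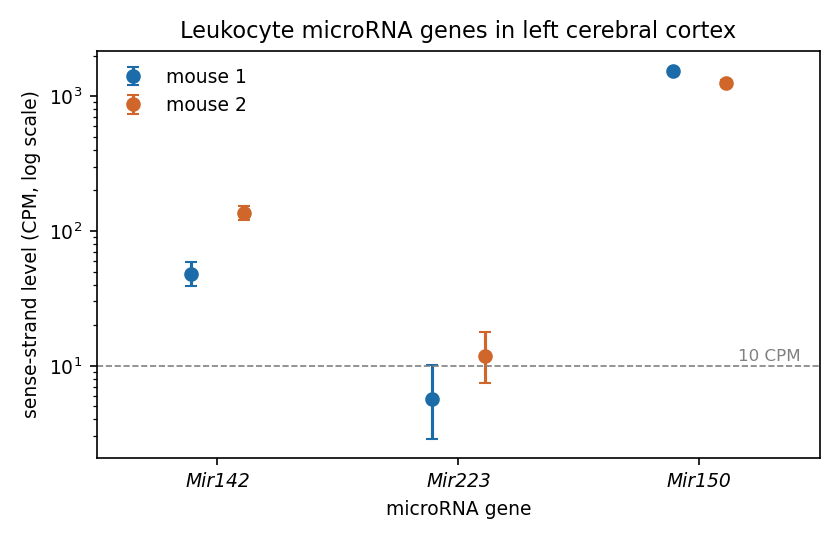
Sense-strand level in CPM (log scale, y axis) of Mir142, Mir223 and Mir150 (x axis); each point is 1 mouse, bars are 95% exact counting intervals, and the dashed line marks 10 CPM. Mir150 lies at 1531 and 1264 CPM, Mir142 between 48.2 and 136.8 CPM, and Mir223 at 5.70 and 11.8 CPM.

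The order Mir150, Mir142, Mir223 held in both mice when levels were set per base of the hairpin (65, 64 and 110 bases). On that scale Mir150 stood at 23.6 CPM per base in mouse 1 and 19.4 in mouse 2, Mir142 at 0.753 and 2.14, and Mir223 at 0.0518 and 0.107. Among all 2202 genes ordered per hairpin base, Mir150 ranked 63 in mouse 1 and 84 in mouse 2. Mir142 ranked 220 and 185, and Mir223 ranked 387 and 335. No 2 neighbours in the order had overlapping counting intervals within a mouse. The 5 mature strands printed are 21 to 23 bases long, so reads per gene are also given. Ranked by CPM, Mir150 stood at 79 in mouse 1 and 96 in mouse 2. Mir142 then stood at 237 and 195, and Mir223 at 363 and 312.

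The distance between Mir150 and Mir142 was not the same in the 2 mice. Per hairpin base, Mir150 was 31.3 times Mir142 in mouse 1 (95% counting interval 25.4 to 38.9) and 9.09 times in mouse 2 (7.99 to 10.4). These ratios lie within a library and do not depend on its scaling, and their intervals did not overlap. Mir142 was 14.5 times Mir223 per hairpin base in mouse 1 (7.76 to 30.1) and 19.9 times in mouse 2 (12.9 to 32.4). The intervals of these ratios overlapped. By reads per gene, with no division by hairpin length, Mir142 was 8.45 times Mir223 in mouse 1 and 11.6 times in mouse 2. The larger ratios per base follow from the longer hairpin of Mir223. Mir150 gave 96.6% of the reads of the 3 genes in mouse 1 and 89.5% in mouse 2, and Mir142 gave 3.04% and 9.69%. Which cells gave these reads was not tested. Together the 3 genes had 3059 and 2632 reads, or 0.158% and 0.141% of sense counts.

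Between the mice, Mir142 and Mir150 differed in opposite directions. Mir142 was 2.75-fold higher in mouse 2 (log2 ratio of mouse 2 over mouse 1 1.46, 95% counting interval 1.11 to 1.82). Its exact binomial test against library sizes scaled by TMM (edgeR) gave an adjusted p of 2.4e-18. Mir150 was 1.25-fold higher in mouse 1 (log2 ratio −0.33, −0.40 to −0.25), with an adjusted p of 7.7e-16 by the same exact test. Mir223 had a log2 ratio of 1.00 (−0.10 to 2.19), an interval that holds 0. It lay under the mean of 10 CPM needed to enter the test. When all genes with a read were tested, its adjusted p by the exact binomial test was 0.156.

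These tests compare 2 libraries for counting error and say nothing of a condition or of the spread between animals. At high counts even a small difference gave a low adjusted p. Mir128-1, 1.02-fold apart, had 0.016 by the same exact test. A gene was called apart where the adjusted p was at most 0.05 and the fold at least 2. Of the 2 member genes tested, Mir142 was called and Mir150 was not. The background was 19.4% of genes called, or 63 of 324, with 14.2% called higher in mouse 2 and 5.25% higher in mouse 1. With a linear trend on hairpin G and C content removed, the calls split into 38 higher in mouse 2 and 29 in mouse 1, against 46 and 17 without that step. The median gene lay 1.44-fold apart, so Mir150 differed by less than the median gene. By size of the log2 ratio, Mir142 ranked 36 and Mir150 ranked 224 of the 324. A single call of 2 is too few to set against the background share.

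**Figure D3:**
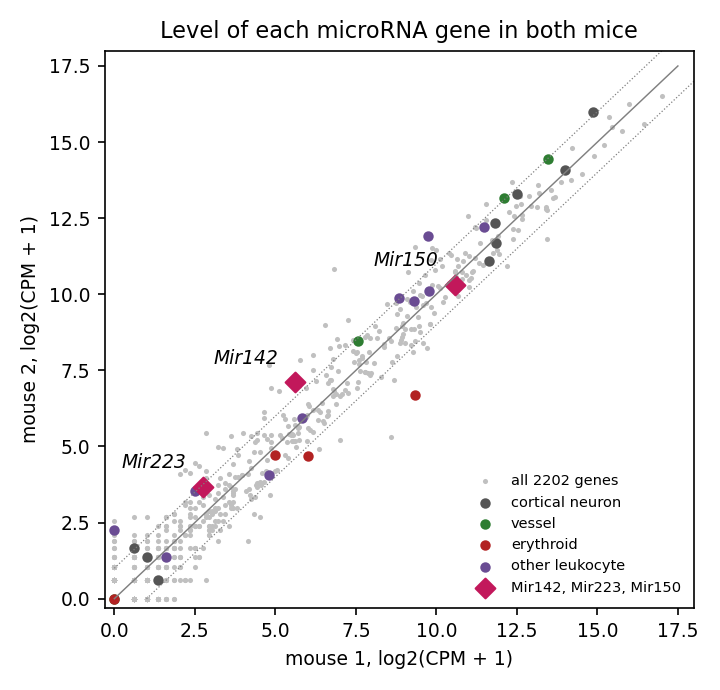
Level of each of 2202 microRNA genes, log2(CPM + 1), in mouse 1 (x axis) and mouse 2 (y axis); diamonds are Mir142, Mir223 and Mir150, coloured points the marker lists, the solid line equal levels and the dotted lines 2-fold. Mir142 lies above the upper dotted line, and Mir150 lies below the solid line but inside the dotted ones.

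Other microRNA genes known from leukocytes were read at levels that differed widely. The list held 10 genes (Mir155, Mir146, Mir146b, Mir342, Mir181a-1, Mir181b-1, Mir511, Mir147, Mir322 and Mir21a). Of these, 7 were detected and tested, 2 were called higher in mouse 2 and 0 higher in mouse 1. Over all 324 genes tested, 14.2% were called higher in mouse 2 and 5.25% higher in mouse 1. The 7 list genes are too few to set against these shares. Their median log2 ratio was 0.42, beside −0.0038 over all 324 genes tested. Many of these genes are also expressed outside blood cells. Mir146, an inducible brake on inflammatory signalling, was read at 452.8 and 945.3 CPM in mouse 1 and mouse 2 (log2 ratio 1.01, called). Mir181b-1, known from lymphocyte development, went the other way at 26.9 and 15.6 CPM (−0.84, adjusted p = 0.0197 by the exact binomial test, under 2-fold and not called). With the trend on G and C content removed, Mir146 was no longer called (0.66) and Mir181b-1 was called higher in mouse 1 (−1.08). The list then had 1 call in each direction and a median of 0.19. Mir21a, which is induced in inflammation and wounding, stood at 860.5 and 3894 CPM (2.13, called). Mir155, induced in activated macrophages and lymphocytes, stood at 55.4 and 59.6 CPM, with a log2 ratio of 0.06 (adjusted p = 0.826 by the exact binomial test). Mir155 was thus in the range of Mir142 in CPM but without its difference between the mice. Mir511, which lies in the macrophage mannose receptor gene, had 0 reads in mouse 1 and 7 in mouse 2, and Mir147 had 4 and 3.

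The red blood cell markers Mir451a and Mir144 were higher in mouse 1, the reverse of Mir142. Of the erythroid list of 5, Mir486b was not analysed here, and the other 4 summed to 742.4 CPM in mouse 1 and 152.9 in mouse 2. Mir451a, the leading erythroid microRNA, stood at 648.6 and 103.0 CPM, 6.51-fold higher in mouse 1, while Mir144 stood at 63.2 and 24.7 CPM, 2.65-fold higher in mouse 1. These 2 of 3 genes tested were called, against 5.25% of all genes tested called higher in mouse 1. With 3 genes tested, the list is too small to set against that share. Mir486 was not called (30.6 and 25.2 CPM), and Mir451b was at 0 in both mice. Mir150 shared the direction of Mir451a at a much smaller size. That direction is common, since the median log2 ratio over all 324 genes tested was −0.0038. The part of blood in the levels of the 3 leukocyte genes was not tested.

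The vessel list had its larger sum in mouse 2, the mouse with more Mir142 reads, but 1 of its 3 tested genes was called, against 19.4% of all genes tested. The list of 4 summed to 15865 CPM in mouse 1 and 31844 in mouse 2, with Mir126b at 0 in both. The endothelial Mir126a stood at 11276 and 22380 CPM, and the mural Mir143 and Mir145a at 4400 and 9110 and at 189.1 and 354.6 CPM. Mir126a (1.92-fold) and Mir145a (1.81-fold) lay under 2-fold. Mir143 was called, at 2.00-fold, but not with DESeq2 size factors in place of TMM, where its log2 ratio was 0.9994. Their part in the difference of Mir142 was not tested.

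Neuronal markers had high counts apart from the Mir124a genes. Of 9 genes, 6 were detected, and the list summed to 62499 CPM in mouse 1 and 102633 in mouse 2. Mir128-1, enriched in neurons, stood at 16283 and 17178 CPM. Mir132, induced by neuronal activity, was called higher in mouse 2 at 29894 and 64860 CPM and made up most of the difference in the sum. It was the only call among the 6 tested, against 19.4% of all genes tested, and the median log2 ratio of the 6 was 0.24. Mir138-2 (−0.60) and Mir128-2 (−0.22) had lower levels in mouse 2, each under 2-fold and not called. The 3 Mir124a genes, the neuron-defining family, had 1 to 4 reads each in either mouse. Reads that mapped to several places, 34.6% of reads in mouse 1 and 37.2% in mouse 2, were given to no gene. What part of these reads came from Mir124a or other genes with several copies was not tested. The low counts of Mir124a therefore do not show that its microRNA was scarce.

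**Figure D4:**
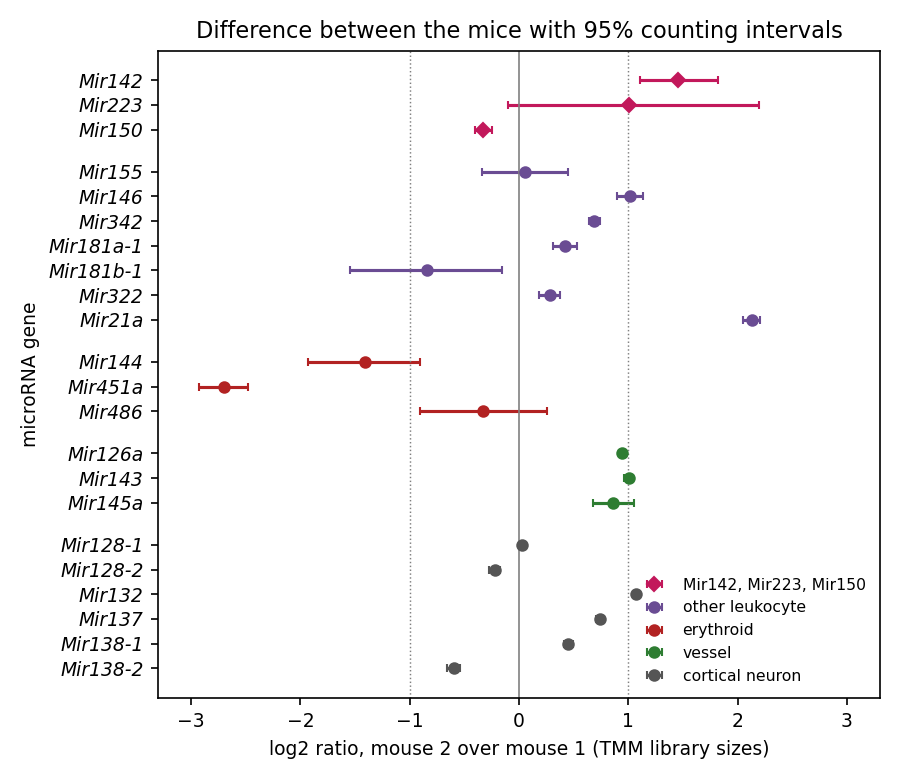
Log2 ratio of mouse 2 over mouse 1 (x axis, TMM library sizes) for Mir142, Mir223, Mir150 and the list genes at a mean of 10 CPM or more (y axis); bars are 95% counting intervals and dotted lines mark 2-fold. Mir142 lies right of the 2-fold line, Mir150 just left of 0, and Mir451a furthest left at −2.70.

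The genes with levels most like each member over the 2 mice were found by Euclidean distance of log2(CPM + 1), a likeness that rests on 2 values per gene. Nearest to Mir142 were Mir3068 (51.8 and 127.2 CPM in mouse 1 and mouse 2, distance 0.147), Mir203 (61.1 and 120.2 CPM, distance 0.385) and Mir374b (33.7 and 112.7 CPM, distance 0.576). Nearest to Mir223 was Mir200c, with the same 11 and 22 reads and a distance of 0, then Mir34b (12 and 23 reads) and Mir764 (11 and 20 reads). Nearest to Mir150 were Mir93 (1490 and 1270.5 CPM, distance 0.0394), Mir130a (1503 and 1359 CPM, distance 0.108) and Mir341 (1426 and 1222 CPM, distance 0.113). None of these 9 genes stands in the leukocyte list. That list holds only 10 of the 2202 genes, so its absence here says nothing about likeness to the members.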

How the data were processed

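MicroRNA-seq of left cerebral cortex from 2 mice was used. The authors deposited whole-number read counts per microRNA gene for each library, on mm10 with GENCODE M21 per the deposited notes. The sources used here name no aligner, counter or settings. Columns have no names and were read from their values as unstranded, sense and opposite-strand counts. The 4 lines that name no gene were left out: unmapped (32.1% of reads in mouse 1, 27.3% in mouse 2), mapped to several places (34.6% and 37.2%), in no gene (6.11% and 5.63%), and ambiguous.

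CPM used the sense totals. TMM factors came from edgeR 4.0.16 (R 4.3.3), size factors from DESeq2 1.42.0, and exact binomial tests and Clopper-Pearson intervals from SciPy 1.17.1, with Benjamini-Hochberg adjustment over the 324 genes at a mean of 10 CPM or more. The test was checked on simulated data with counting noise only, so the check does not cover any further spread between libraries. The counts of the libraries differed by far more than sampling noise (chi-square 176411 on 721 degrees of freedom), so they were not taken as 1 library deposited as 2. That they come from separate animals rests on the labels. A model fit with replicates per group could not be made with 1 library per animal in 1 group.

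Genes named were the 3 members, overlapping microRNA genes, the 3 nearest genes of each member, and the lists. The members and lists were chosen with earlier results of these data known. Sequences are from RefSeq (GRCm38.p6): the table held 5 mature strands of the 3 genes and hairpins of Mir142 and Mir223. Alternatives covered the strand column, scaling, filter, G and C trend, pseudocount (10 for 1) and each mouse alone.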

Additional observations from a re-analysis of the deposited data

How the results depend on the processing

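Mir142 depended on the strand column: unstranded, its level was 0 CPM and its ratio to Mir223 was 0. The ratio of Mir150 to Mir142 and the difference of Mir142 between the mice then had no value. This follows from Mir142b on the opposite strand. The lists used beside Mir142 depended on the column too. Unstranded, the erythroid list had 1 gene tested in place of 3, and the vessel list 2 in place of 3. Scaled to all mapped reads in place of sense counts, the mean levels in CPM were 37.7 for Mir142, 3.56 for Mir223 and 566 for Mir150. The mean ratio of Mir142 to Mir223 over the mice was 10.02 in CPM and 17.2 per hairpin base, so its size depended on the division by hairpin length. With 1 mouse left out, the level ran from 48.2 to 136.8 CPM for Mir142, from 5.70 to 11.8 for Mir223 and from 1264 to 1531 for Mir150, and no difference between mice remained to compute.

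The log2 ratio of Mir142 ran from 1.15 (G and C trend removed) to 1.51 (total counts) and was called each time it had a value; Mir150 ran from −0.33 to −0.15, uncalled, and Mir223 from 0.88 to 1.05. Genes called apart numbered 62 to 67 of 308 to 324 tested with the filter, and 71 of 722 (9.83%) without it, against 63 of 324 (19.4%). With the G and C trend removed, 2 list genes changed direction, Mir155 to −0.23 and Mir128-1 to −0.098. The 3 nearest genes of each member were the same with a pseudocount of 10. No paired analysis was possible because there is 1 group. At 11 and 22 reads, depth limits Mir223: its 95% interval of the fold of mouse 2 over mouse 1 runs from 0.931 to 4.58.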
